A study of Mus musculus with 11 samples.

Results

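The genes described here steer the mitochondrial route of programmed cell death in mouse. They are the BH3-only genes *Bbc3*, *Bcl2l11*, *Bmf*, *Pmaip1* and *Bid*, the pore formers *Bax* and *Bak1*, the survival genes *Bcl2* and *Mcl1*, and *Apaf1*, which encodes the scaffold of the apoptosome. A probe was taken as a member when it carried the symbol of any of these 10 genes and any of the 11 arrays detected it, that is, at a detection p below 0.05. The array held 27 probes for 9 of the genes. Of these, 18 were detected, with at least 1 for each of the 9 genes, out of 16217 detected probes with a single gene symbol. No probe analysed here carried the symbol *Bax*, so the gene has no value. For tests per gene, the detected probe with the largest mean stood for its gene, which gave 9 members among 10933 genes.

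RNA came from subcutaneous tumors of A375, a human melanoma line with mutant BRAF, grown in CD1 athymic female mice that were 6 weeks old at injection, and it was hybridized to the MouseWG-6 v2.0 bead array to read the mouse host. COMBO tumors (2 arrays) received both drugs, PLX4720 tumors (3 arrays) an inhibitor of mutant BRAF at 60 mg/kg daily by gavage, bevacizumab tumors (3 arrays) an antibody to human VEGF-A at 10 mg/kg, injected 3 times a week, and vehicle tumors (3 arrays) methylcellulose. The labels give 1% methylcellulose for vehicle and PLX4720, 0.9% saline for bevacizumab, and neither for COMBO. By the labels, bevacizumab and vehicle tumors thus also differ in the diluent. The study's methods call the arrays biological replicates. The labels do not say whether each is a mouse of its own, and p-values measure the spread between arrays. The labels put the treatment at 12 days from a tumor volume of 150 to 200 mm3, while the study's methods give other figures for both. The tumors are a single human cell line in mice without T cells, and the RNA was of whole tumors, so in these data a change in the number of host cells of a type and a change in RNA per cell cannot be told apart. How far single mouse probes also bind the human transcripts was not tested.

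In resting cells BCL-2 and MCL-1 bind and hold back BAX and BAK, the proteins that open the outer mitochondrial membrane. BH3-only proteins are induced or activated by stress, loss of growth factor signals or DNA damage, and they occupy the survival proteins or activate the pore formers directly. Once the membrane is open, cytochrome c reaches APAF-1, which assembles into the apoptosome and activates caspase-9. ERK signaling marks BIM, the product of *Bcl2l11*, for degradation, and FOXO transcription factors can raise *Bbc3* and *Bcl2l11* transcription, which makes the family a usual readout of inhibitors of the BRAF and ERK pathway. The mutant BRAF that PLX4720 targets is in the human A375 cells, while these arrays read the mouse host. ERK activity in the host cells was not measured here.

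The upstream stretches of 3 members are shown because *Bbc3* and *Apaf1* were the members that passed the test and because *Bbc3* and *Bcl2l11* had probes that fell under PLX4720 after normalization. For *Bbc3* and *Bcl2l11* only the window that holds the FOXO motif is printed. Their other windows hold no FOXO motif: chr7:16309333-16309582 and chr7:16310181-16310430 of *Bbc3* and chr2:128127325-128127574 of *Bcl2l11*. Each is the 250 bases before an annotated start site in RefSeq (build GRCm38.p6), written 5′ to 3′ along the gene's own strand, with capitals for the FOXO motif TGTTTAC on either strand and for the E-box CACGTG.
*Bbc3*, chr7:16310011-16310260, plus strand: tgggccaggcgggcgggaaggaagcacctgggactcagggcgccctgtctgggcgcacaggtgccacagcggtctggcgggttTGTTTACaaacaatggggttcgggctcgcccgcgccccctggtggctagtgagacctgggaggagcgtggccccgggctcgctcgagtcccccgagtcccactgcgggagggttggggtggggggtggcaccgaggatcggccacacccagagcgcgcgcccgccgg
*Bcl2l11*, chr2:128125788-128126037, plus strand: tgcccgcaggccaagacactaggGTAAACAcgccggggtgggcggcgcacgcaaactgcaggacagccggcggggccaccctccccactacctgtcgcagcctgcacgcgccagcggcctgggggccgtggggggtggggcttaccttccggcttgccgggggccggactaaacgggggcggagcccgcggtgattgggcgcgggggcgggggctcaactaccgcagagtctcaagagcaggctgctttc
*Apaf1*, chr10:91082744-91082993, minus strand: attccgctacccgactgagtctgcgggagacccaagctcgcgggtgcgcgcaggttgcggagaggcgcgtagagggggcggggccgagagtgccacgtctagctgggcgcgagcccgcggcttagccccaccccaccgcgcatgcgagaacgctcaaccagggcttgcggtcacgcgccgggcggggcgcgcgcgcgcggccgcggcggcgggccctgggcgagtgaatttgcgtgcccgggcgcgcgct
The FOXO motif stood 167 bases before this *Bbc3* start and, on the other strand, 227 bases before this *Bcl2l11* start. It was found in 2 of 14 windows of 9 members (the windows of *Pmaip1* were not used) and in 3.17% of all 32851 windows of this length. The E-box was in 2 member windows, another start of *Bbc3* and the start of *Bax*, against 6.02% of all windows, and the GC box GGGCGG was in 10 of 14, against 32.7% of all. The *Apaf1* window held neither capitalized motif, and at 75.6% its GC content was close to the 72.4% of the *Bbc3* stretch and the 72% of the *Bcl2l11* stretch. These matches describe the letters of the windows and not the binding of any factor.

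After normalization, PLX4720 tumors had less *Bbc3* and more *Apaf1* signal than vehicle tumors, and no member passed the test with bevacizumab or with COMBO. These are 1 member lower and 1 higher of 9 at an adjusted p under 0.05 (limma, Benjamini-Hochberg over all 10933 genes), where 13% of all genes passed, 5.51% higher and 7.51% lower. Among 9 members, 1 gene in each direction is not far from this background. Median scaling, which does not equalize the spread of the arrays, gave 4791 higher and 209 lower among all genes, in place of 602 and 821. The median log2 fold change of the 9 members under PLX4720 was 0.42, beside 0.14 over all genes. *Bmf*, *Mcl1* and *Bak1* were also higher on every PLX4720 array than on any vehicle array, without passing the adjusted threshold, and *Bmf* and *Bak1* were detected on no vehicle array. *Bak1* was also not detected on PLX4720 replicate 1, at 5.37, so its order there is background. The share of all genes that separate the groups in this way is not given here. Such separations, here and below, are descriptions. With housekeeping scaling the log2 fold change of *Bak1* was -0.13. In the moderated F test over the 4 groups, *Bbc3* (adjusted p = 0.0523) and *Apaf1* (adjusted p = 0.0708) were the members under the methods' threshold of 0.1, which 10.6% of all genes passed.

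**Figure D1:**
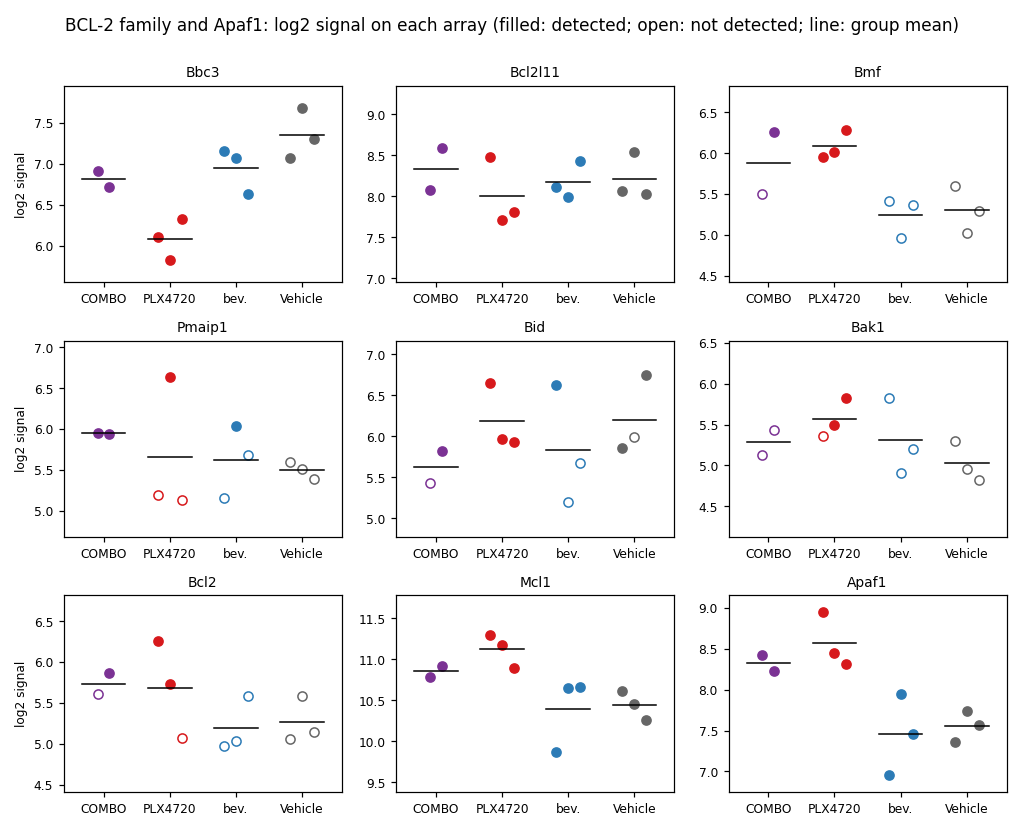
Log2 signal (y axis) of the probe that stands for each of the 9 members on every array, for COMBO (2 arrays), PLX4720, bevacizumab and vehicle (3 arrays each). Filled points were detected, open points were not, and lines are group means; the PLX4720 arrays lie below all others for *Bbc3*, the PLX4720 and COMBO arrays lie above all others for *Apaf1*, and *Pmaip1*, *Bak1* and *Bcl2* are near background on most arrays.

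Among the BH3-only genes, *Bbc3* encodes PUMA, a p53 and FOXO target that binds all survival proteins. Its brightest probe, ILMN_2690620, had log2 signals of 6.91 and 6.71 on the COMBO arrays, 6.11, 5.83 and 6.33 with PLX4720, 7.16, 7.07 and 6.63 with bevacizumab, and 7.07, 7.68 and 7.30 with vehicle. After normalization all PLX4720 arrays lay below every other array, and the COMBO arrays lay between the PLX4720 and the vehicle arrays without overlap. The PLX4720 mean was 6.09 ± 0.25 (SD, n = 3), against 7.35 ± 0.31 (SD, n = 3) with vehicle, a log2 fold change of -1.26 (SE 0.25, adjusted p = 0.0107), or 2.40-fold lower. For COMBO against vehicle the log2 fold change was -0.54 (95% confidence interval -1.15 to 0.08, adjusted p = 0.424), and for bevacizumab it was -0.40 (-0.94 to 0.15, adjusted p = 0.83). COMBO lay 0.73 above PLX4720 (95% confidence interval 0.11 to 1.34, adjusted p = 0.269). In order of means the groups ran vehicle, bevacizumab, COMBO and PLX4720, and the ranges of vehicle and bevacizumab and of bevacizumab and COMBO overlapped. The call for PLX4720 was lost without vehicle replicate 2 (log2 fold change -1.10, adjusted p = 0.0555), the vehicle array with the highest signal. Before background correction and normalization the signals of this probe were 205.4, 195.5 and 190.2 with PLX4720 and 203.1, 288.6 and 195.7 with vehicle. With bevacizumab they were 173.2, 185.3 and 160.7, and with COMBO 195.7 and 190.3. The PLX4720 range thus overlapped those of vehicle and COMBO and lay above all bevacizumab arrays. Both the order of the groups and the size of the fall therefore depend on the scaling. The log2 fold change for PLX4720 against vehicle was -0.62 without background correction and -0.44 with median scaling. For COMBO against PLX4720 it was 0.18 with median scaling.

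The other *Bbc3* probes differed in direction under PLX4720. ILMN_2690621 had 5.66 and 5.86 with COMBO, 5.72, 5.73 and 6.30 with PLX4720, 7.91, 6.15 and 6.77 with bevacizumab, and 6.41, 7.26 and 7.80 with vehicle. On this probe the COMBO arrays were as low as the PLX4720 arrays, unlike on the brightest probe. Its log2 fold change was -1.24 for PLX4720 (SE 0.44, adjusted p = 0.087) and -1.40 for COMBO (SE 0.49, adjusted p = 0.253), both from the fit over all probes. The remaining probe, ILMN_2920736, ran the other way under PLX4720, with means of 6.25 ± 0.25 (SD, n = 3) there and 5.80 ± 0.34 (SD, n = 3) with vehicle (log2 fold change 0.46, SE 0.27, adjusted p = 0.271), and was detected on 3 PLX4720 arrays and 1 vehicle array. With the mean of the 3 probes in place of the brightest, *Bbc3* was at -0.68 (adjusted p = 0.103).

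*Bcl2l11*, the gene of BIM, is the BH3-only gene most tied to ERK. Its brightest probe, ILMN_3157568, did not separate the groups, with 8.07 and 8.59 on the COMBO arrays, 8.48, 7.71 and 7.80 on the PLX4720 arrays, 8.11, 7.99 and 8.43 on the bevacizumab arrays, and 8.06, 8.54 and 8.03 on the vehicle arrays. It had a log2 fold change for PLX4720 of -0.21 (95% confidence interval -0.82 to 0.40, adjusted p = 0.615). The probe ILMN_1229255, in contrast, had 6.63 and 6.28 with COMBO, 6.32, 5.68 and 7.01 with PLX4720, 7.73, 7.45 and 7.48 with bevacizumab, and 7.47, 7.51 and 7.58 with vehicle. After normalization every COMBO and PLX4720 array was below every bevacizumab and vehicle array. Before background correction and normalization the signals overlapped, at 230.1, 181.2 and 248.7 with PLX4720 and 236.7, 271 and 213.8 with vehicle. With bevacizumab they were 212.9, 212.3 and 207.9, within the PLX4720 range. The COMBO signals, 180 and 165.3, were below all bevacizumab and vehicle arrays before these steps too. Over all probes ILMN_1229255 fell by 1.19 on the log2 scale under PLX4720 (SE 0.30, adjusted p = 0.03), a fit in which 11.6% of probes passed and 4 of the 18 member probes did. For COMBO against vehicle it was at -1.07 (SE 0.34, adjusted p = 0.213). The remaining probe, ILMN_2590638, was highest with bevacizumab, at 6.89, 6.83 and 6.38, against 6.15, 5.43 and 5.97 with vehicle (log2 fold change 0.85, SE 0.28, adjusted p = 0.637). The means of these 3 probes thus ordered the groups in 3 ways. The call for ILMN_1229255 was lost without any single PLX4720 or vehicle array except PLX4720 replicate 3, with adjusted p between 0.0619 and 0.0953. It was also lost with median scaling (log2 fold change -0.32, adjusted p = 0.383), with only the PLX4720 and vehicle arrays in the fit (adjusted p = 0.0769) and without the 3 arrays highest in muscle genes (adjusted p = 0.129).

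**Figure D2:**
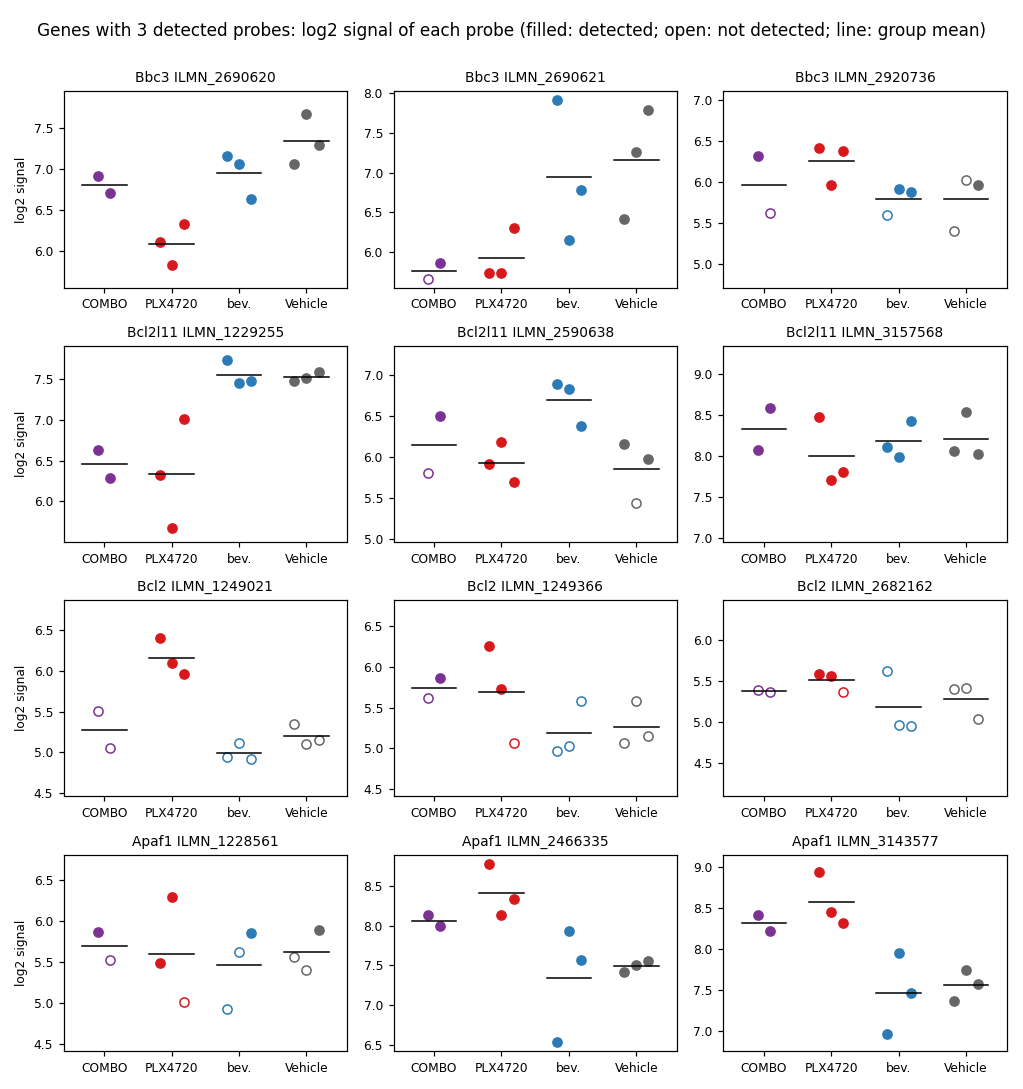
Log2 signal (y axis) of each detected probe of *Bbc3*, *Bcl2l11*, *Bcl2* and *Apaf1* (a row per gene) on every array of COMBO, PLX4720, bevacizumab and vehicle; filled points were detected, open points were not, and lines are group means. Within a row the probes differ: ILMN_2690620 and ILMN_2690621 of *Bbc3* are low with PLX4720 while ILMN_2920736 is not, and ILMN_1229255 of *Bcl2l11* is low with COMBO and PLX4720 while ILMN_3157568 is not.

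*Bmf*, a BH3-only gene whose product is released from the cytoskeleton in cells that lose attachment, had 1 probe. It was at 5.51 and 6.26 with COMBO, 5.95, 6.02 and 6.28 with PLX4720, 5.42, 4.96 and 5.37 with bevacizumab, and 5.59, 5.02 and 5.30 with vehicle. It was detected on all 3 PLX4720 arrays and 1 COMBO array and on no bevacizumab or vehicle array. With PLX4720 it was at least 1.11-fold that of vehicle, a bound in which an undetected signal counts as no less than the lowest signal its array detected, and the fitted log2 fold change was 0.78 (SE 0.27, adjusted p = 0.0721). For COMBO it was 0.58 (95% confidence interval -0.07 to 1.23, adjusted p = 0.413).

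*Pmaip1*, the gene of NOXA, which binds MCL-1, and *Bid*, whose product links death receptors to mitochondria, were dim. The brighter *Pmaip1* probe was detected on both COMBO arrays (5.95 and 5.94), on 1 PLX4720 array (replicate 2, at 6.63) and 1 bevacizumab array (replicate 2, at 6.03), and on no vehicle array. Its log2 fold change was 0.45 for COMBO (95% confidence interval -0.46 to 1.36) and 0.16 for PLX4720 (-0.65 to 0.97). The other detected *Pmaip1* probe was seen on that same PLX4720 array alone. *Bid* ranged from 5.43 to 5.82 with COMBO, 5.93 to 6.65 with PLX4720, 5.20 to 6.63 with bevacizumab and 5.86 to 6.74 with vehicle. *Bid* was detected on 1 COMBO, 3 PLX4720, 1 bevacizumab and 2 vehicle arrays. Its COMBO arrays were below all vehicle arrays, but only just, at 5.82 against 5.86, and near background. The log2 fold change was -0.58, with a 95% confidence interval of -1.50 to 0.35 (adjusted p = 0.58).

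Of the pore formers only *Bak1* could be read. It was detected on 2 PLX4720 arrays and no other, with means of 5.28 ± 0.21 (SD, n = 2) for COMBO, 5.56 ± 0.24 (SD, n = 3) for PLX4720, 5.31 ± 0.47 (SD, n = 3) for bevacizumab and 5.03 ± 0.25 (SD, n = 3) for vehicle. The log2 fold change for PLX4720 was 0.53 (95% confidence interval -0.06 to 1.13, adjusted p = 0.2). Where a probe is not detected in either group, its values are background and hold no order.

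The survival gene *Mcl1*, whose short-lived product many blood cells need, was read by 1 bright probe on every array. It had 10.79 and 10.91 with COMBO, 11.30, 11.18 and 10.89 with PLX4720, 9.86, 10.65 and 10.67 with bevacizumab, and 10.61, 10.46 and 10.26 with vehicle. All COMBO and PLX4720 arrays lay above all bevacizumab and vehicle arrays. The log2 fold change was 0.68 for PLX4720 (SE 0.26, 95% confidence interval 0.12 to 1.25, adjusted p = 0.0989), 0.41 for COMBO (-0.22 to 1.04, adjusted p = 0.563) and -0.05 for bevacizumab (-0.62 to 0.52, adjusted p = 0.986), and in the F test it did not pass (adjusted p = 0.2).

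*Bcl2*, the founding survival gene, was dim, with 3 of 9 probes detected. The probe with the largest mean, ILMN_1249366, was found on 1 COMBO and 2 PLX4720 arrays and had a log2 fold change of 0.42 under PLX4720 (95% confidence interval -0.26 to 1.11, adjusted p = 0.367). A second probe, ILMN_1249021, separated PLX4720 from the rest. It had 5.50 and 5.06 with COMBO, 6.40, 6.10 and 5.97 with PLX4720, where alone it was detected, 4.94, 5.12 and 4.92 with bevacizumab, and 5.35, 5.10 and 5.15 with vehicle. Every PLX4720 array lay above every other array. The PLX4720 level was at least 1.17-fold that of vehicle by the detection bound, and the fitted log2 fold change was 0.96 (SE 0.22, adjusted p = 0.0221 over all probes). This call was lost without vehicle replicate 2 (adjusted p = 0.0883), vehicle replicate 3 (adjusted p = 0.0667) or PLX4720 replicate 1 (adjusted p = 0.068), with housekeeping scaling (log2 fold change 0.59, adjusted p = 0.166), with only the PLX4720 and vehicle arrays in the fit (adjusted p = 0.0596), and without the 3 arrays highest in muscle genes (adjusted p = 0.112). Its log2 fold change is also under the methods' threshold of 1. On this probe COMBO lay 0.88 below PLX4720 (SE 0.25, adjusted p = 0.17), at least 1.32-fold lower by the bound. The last probe, ILMN_2682162, was detected on 2 PLX4720 arrays alone, with a PLX4720 mean of 5.51 ± 0.12 against 5.28 ± 0.22 with vehicle (SD, n = 3 each), and did not separate the groups.

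*Apaf1* was the member that passed the test upward. Its brightest probe, ILMN_3143577, had 8.42 and 8.22 with COMBO, 8.94, 8.45 and 8.31 with PLX4720, 6.96, 7.95 and 7.46 with bevacizumab, and 7.37, 7.74 and 7.57 with vehicle. All 5 arrays of the groups that received PLX4720 lay above all 6 arrays of the others. The means were 8.57 ± 0.33 (SD, n = 3) with PLX4720 and 7.56 ± 0.19 (SD, n = 3) with vehicle, a log2 fold change of 1.01 (SE 0.28, adjusted p = 0.0389), or 2.01-fold. For COMBO against vehicle it was 0.76 (95% confidence interval 0.07 to 1.45, adjusted p = 0.308) and against bevacizumab 0.86 (0.18 to 1.55, adjusted p = 0.381), while COMBO and PLX4720 differed by -0.25 (-0.94 to 0.44, adjusted p = 0.766). Bevacizumab and vehicle overlapped, with a log2 fold change of -0.10 (-0.72 to 0.51). The probe ILMN_2466335 gave the same separation, with 8.13 and 7.99 with COMBO, 8.78, 8.13 and 8.33 with PLX4720, 6.53, 7.94 and 7.56 with bevacizumab, and 7.42, 7.50 and 7.55 with vehicle (log2 fold change 0.92 for PLX4720, SE 0.33, adjusted p = 0.0878). The dim remaining probe, ILMN_1228561, was at -0.02 (SE 0.34). The adjusted p of *Apaf1* was close to the threshold: when each of the 11 arrays was left out in turn it ranged between 0.0279 and 0.122 and stayed under 0.05 in 3 of these fits.

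**Figure D3:**
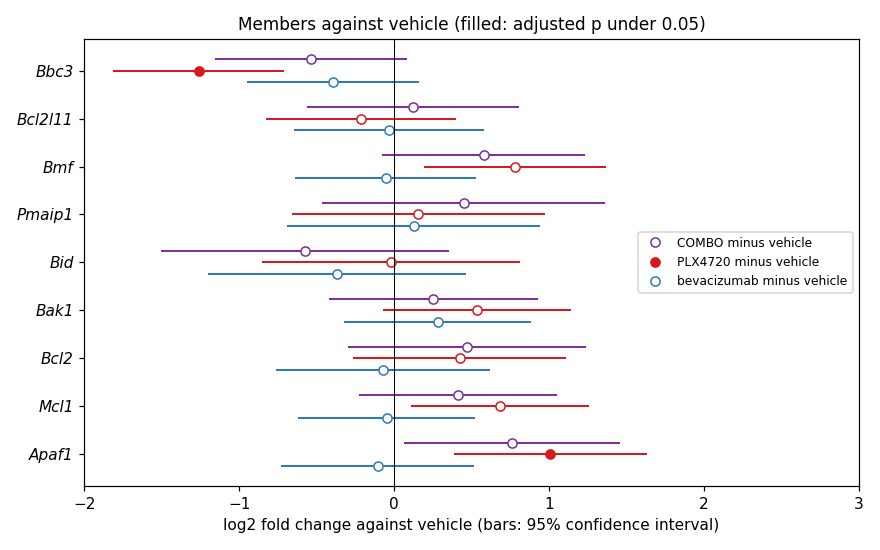
Log2 fold change against vehicle (x axis) of the 9 members for COMBO, PLX4720 and bevacizumab, with 95% confidence intervals from the limma fit; filled points passed an adjusted p of 0.05. *Bbc3* at -1.26 and *Apaf1* at 1.01 under PLX4720 are the filled points, and the bevacizumab intervals all include 0.

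Across the comparisons, 4 members had an unadjusted p under 0.05 for PLX4720 against vehicle (*Bbc3*, *Apaf1*, *Bmf* and *Mcl1*), where 3444 of all genes did. For bevacizumab against vehicle 0 members and 766 of all genes did, and 0 members passed the adjusted threshold, which 0.00915% of all genes passed. For COMBO against vehicle 1 member (*Apaf1*) and 1526 of all genes had an unadjusted p under 0.05, and 0 members passed the adjusted threshold, against 0.366% of all genes. For COMBO against PLX4720 1 member (*Bbc3*) and 1533 of all genes did, and 0 members passed, against 0.00915% of all genes. For COMBO against bevacizumab 1 member (*Apaf1*) and 1040 of all genes did, and 0 members passed, against 0.0457%. The study's methods ask for a log2 fold change beyond 1 in either direction and an unadjusted p below 0.01. *Bbc3* and *Apaf1* met this for PLX4720, as did 1188 of all genes, and 0 members passed in the other comparisons. The comparisons with vehicle share the vehicle arrays. The median over members was -0.05 for bevacizumab and 0.41 for COMBO against vehicle, -0.20 for COMBO against PLX4720 and 0.32 for COMBO against bevacizumab, while the medians over all genes lay between -0.07 and 0.01. Whether PLX4720 acted differently in the presence of bevacizumab was tested as an interaction, and 0 of 9 members and 1 of all 10933 genes passed it, with 1535 of all genes at an unadjusted p under 0.05. The largest member term was that of *Bbc3*, on its brightest probe. There the PLX4720 difference was 1.12 higher with bevacizumab than without (SE 0.38, unadjusted p = 0.0117, adjusted p = 0.234). The other *Bbc3* probes did not show it. In the fit over all probes their terms were 0.05 for ILMN_2690621 (SE 0.66) and -0.28 for ILMN_2920736 (SE 0.40).

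Several measures of the arrays moved with PLX4720 beside these genes. Each PLX4720 array detected 13049 to 15130 probes and each of the other 8 arrays 10115 to 12315, and the number of member probes detected per array ran from 9 to 12 with COMBO, 13 to 18 with PLX4720, 9 to 10 with bevacizumab and 7 to 11 with vehicle. The part of this in the detection of *Bmf*, *Bak1* and *Bcl2* was not tested. The mean log2 signal of 12 endothelial markers was 7.14 to 7.50 with COMBO, 7.39 to 8.21 with PLX4720, 8.10 to 8.49 with bevacizumab and 8.91 to 9.04 with vehicle, and 6 of the 12 fell under PLX4720. That of 10 macrophage markers was 9.96 to 10.23 with COMBO, 9.85 to 10.06 with PLX4720, 9.37 to 9.55 with bevacizumab and 9.07 to 9.77 with vehicle, and 2 of the 10 rose under PLX4720. Each array detected 11 or 12 of the endothelial and 7 to 9 of the macrophage markers. Over 5 natural killer markers the mean was 6.85 to 7.12 with COMBO, 6.43 to 7.11 with PLX4720, 6.63 to 6.92 with bevacizumab and 5.62 to 6.33 with vehicle, and 1 of the 5 rose in each treated group. Over 9 fibroblast markers it was 8.12 to 8.85 with COMBO, 8.98 to 10.96 with PLX4720, 8.75 to 10.10 with bevacizumab and 8.78 to 9.44 with vehicle, and none passed the test. Of 8 melanocyte markers, 7 were detected on no array, and *Pmel*, detected on 7 arrays, fell under PLX4720 and was at a log2 fold change of -1.15 for COMBO against vehicle, not past the threshold. The part of these cell types in the member values was not tested.

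Skeletal muscle genes were uneven within groups. The mean log2 signal of 15 measured muscle genes was 10.35 and 7.05 on the COMBO arrays, 12.98, 5.40 and 8.40 with PLX4720, 5.60, 9.82 and 5.39 with bevacizumab, and 5.47, 6.94 and 5.44 with vehicle. In each group the array with the most muscle signal was also the array with the most *Apaf1*, while the other arrays of the PLX4720, bevacizumab and vehicle groups ran in the opposite order for the 2 measures. Without the 3 arrays highest in muscle genes the log2 fold change under PLX4720 was 0.82 for *Apaf1* (adjusted p = 0.135) and -1.27 for *Bbc3* (adjusted p = 0.0674), from 2 PLX4720 and 3 vehicle arrays, and 0 members passed.

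Over the 11 arrays the genes with the profile most like *Bbc3* were *Qrfpr* (Pearson r = 0.989), *Neu2* (r = 0.980) and *Hdac9*, a histone deacetylase (r = 0.980). Those most like *Apaf1* were *Trappc10*, a subunit of a vesicle tethering complex (r = 0.955), *Serinc3*, a membrane protein (r = 0.953), and *Csprs* (r = 0.947). These are the largest correlations over all genes tested, across arrays that share their treatments and their muscle content, and are given as a description.

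In the wider cell death machinery PLX4720 raised 4 of 59 measured genes and lowered none, or 6.78%, below the 13% of all genes, and 0 passed in the other comparisons, where the unadjusted p was under 0.05 for 7 (bevacizumab against vehicle), 10 (COMBO against vehicle), 5 (COMBO against PLX4720) and 5 (COMBO against bevacizumab) of the 59. Over all 10933 genes the same counts were 766 for bevacizumab against vehicle, 1526 for COMBO against vehicle, 1533 for COMBO against PLX4720 and 1040 for COMBO against bevacizumab. The genes come from 7 lists with 79 genes in all. *Fas*, the death receptor, was at 6.67 and 6.21 with COMBO, 6.82, 6.81 and 6.72 with PLX4720, 6.16, 6.55 and 5.54 with bevacizumab, and 5.50, 5.48 and 5.80 with vehicle, where no array detected it. Under PLX4720 it rose (at least 1.80-fold higher, fitted log2 fold change 1.19, SE 0.27, adjusted p = 0.0189). Both COMBO arrays also lay above the vehicle range, without passing (log2 fold change 0.85, adjusted p = 0.245). *Bcl2l13*, a BCL-2 relative of the mitochondrial outer membrane, was at least 1.64-fold higher, with 6.58, 6.97 and 6.39 with PLX4720 against 5.72, 5.52 and 5.37 with vehicle (adjusted p = 0.025). *Birc2*, the gene of the caspase and NF-kB regulator cIAP1, rose by 1.07 (SE 0.31, adjusted p = 0.0421), with 8.49, 7.85 and 7.15 with PLX4720 against 6.74, 6.59 and 6.96 with vehicle. *Casp2*, an initiator caspase, rose by 0.84 (SE 0.24, adjusted p = 0.0389), with 9.26, 8.66 and 9.08 with PLX4720 against 8.11, 8.29 and 8.09 with vehicle. A second probe of *Casp2* was at -0.11 and second probes of *Fas* and *Bcl2l13* were at 0.47 and 0.59, while *Birc2* had further probes at 1.05 and -0.02. These genes include a receptor that starts cell death and an inhibitor that restrains it. The count was 0 without vehicle replicate 2, 0 without PLX4720 replicate 1, and 1 without vehicle replicate 1 or without vehicle replicate 3, and with each array left out in turn the call was lost in 3 of 11 fits for *Fas*, 4 for *Bcl2l13*, 9 for *Birc2* and 7 for *Casp2*. All 4 genes kept positive log2 fold changes under every setting run, though some settings, such as a bevacizumab or COMBO array left out, could not move them.

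By list, 1 of 10 other BCL-2 family genes, 1 of 10 apoptosome and caspase genes, 1 of 4 inhibitors of apoptosis and 1 of 9 death receptor genes rose under PLX4720, and 0 of 11 p53 genes and targets, 0 of 6 transcription factors of BH3-only genes and 0 of 9 mitochondrial outer membrane genes changed. The list medians lay between -0.21 and 0.40, beside 0.14 for all genes. The largest differences that did not pass were those of *Mtch2*, the receptor of truncated BID on mitochondria (log2 fold change -2.23, SE 0.68, adjusted p = 0.0512, with other probes at 0.45 and 0.60), and *Htra2*, a protease released from mitochondria (-1.21, SE 0.44, adjusted p = 0.0891, with other probes at 0.37 and 0.83). *Tomm22*, an import receptor of the outer membrane, was at 0.76 (adjusted p = 0.118) and *Cycs*, cytochrome c, at 0.96 (adjusted p = 0.0973, with other probes at 0.72 and -0.33). *Bcl2l1*, the gene of the survival protein BCL-XL, named after its values were seen, was at -0.66 (adjusted p = 0.345) on its brightest probe and at -1.13 and -1.18 on others. Of genes known to control *Bbc3* and *Bcl2l11* transcription, *Jun* was at -0.89 (adjusted p = 0.0503) and *Foxo1* at 0.61 (adjusted p = 0.137). Among p53 targets *Gadd45a* was at -0.87 (adjusted p = 0.117) and *Ccng1* at 0.99 (adjusted p = 0.216, with other probes at -0.17 and 0.24), and the inhibitor gene *Birc3* was at -0.81 (adjusted p = 0.224), the death receptor *Tnfrsf1b* at 1.10 (adjusted p = 0.137) and the BH3-only gene *Bik* at 0.84 (adjusted p = 0.117).

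**Figure D4:**
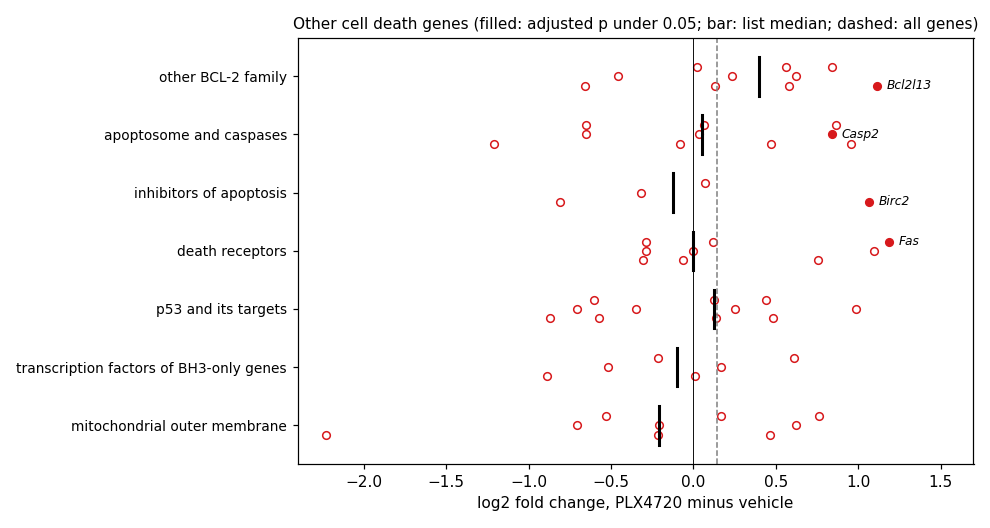
Log2 fold change for PLX4720 minus vehicle (x axis) of the 59 measured genes in 7 lists of cell death genes (rows), a point per gene, with bars at list medians and a dashed line at the median of all genes, 0.14. The filled points, *Bcl2l13*, *Casp2*, *Birc2* and *Fas*, passed an adjusted p of 0.05, and all 4 are higher with PLX4720.

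Among these lists the largest difference of COMBO tumors from each other group was that of *Bok*, a BAX and BAK relative, and none passed the threshold. Its mean log2 signal was 5.76 with COMBO, 7.98 with PLX4720, 7.49 with bevacizumab and 7.85 with vehicle. The lowest detected log2 signals of the COMBO arrays were 5.82 and 5.70, so the COMBO mean of *Bok* was near background. Its log2 fold changes for COMBO were -2.22 against PLX4720 (SE 0.53, adjusted p = 0.115), -1.74 against bevacizumab (adjusted p = 0.303) and -2.09 against vehicle (adjusted p = 0.117). *Tnfsf10*, the gene of the death ligand TRAIL, was 1.14 higher with COMBO than with bevacizumab (SE 0.35, adjusted p = 0.31) and 0.81 higher than with PLX4720 (adjusted p = 0.328). *Gadd45a* was at -1.18 for COMBO against vehicle (adjusted p = 0.215) and *Bcl2a1c*, a survival gene of blood cells with near-identical copies, at 1.28 (adjusted p = 0.228). *Bcl2a1c* was at 1.10 for bevacizumab against vehicle (adjusted p = 0.63), the largest difference of that comparison among these lists. *Zmat3*, a p53 target, was at -1.13 for COMBO against PLX4720 (adjusted p = 0.216) and *Mtch2* at 1.93 (adjusted p = 0.278).

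**Figure D5:**
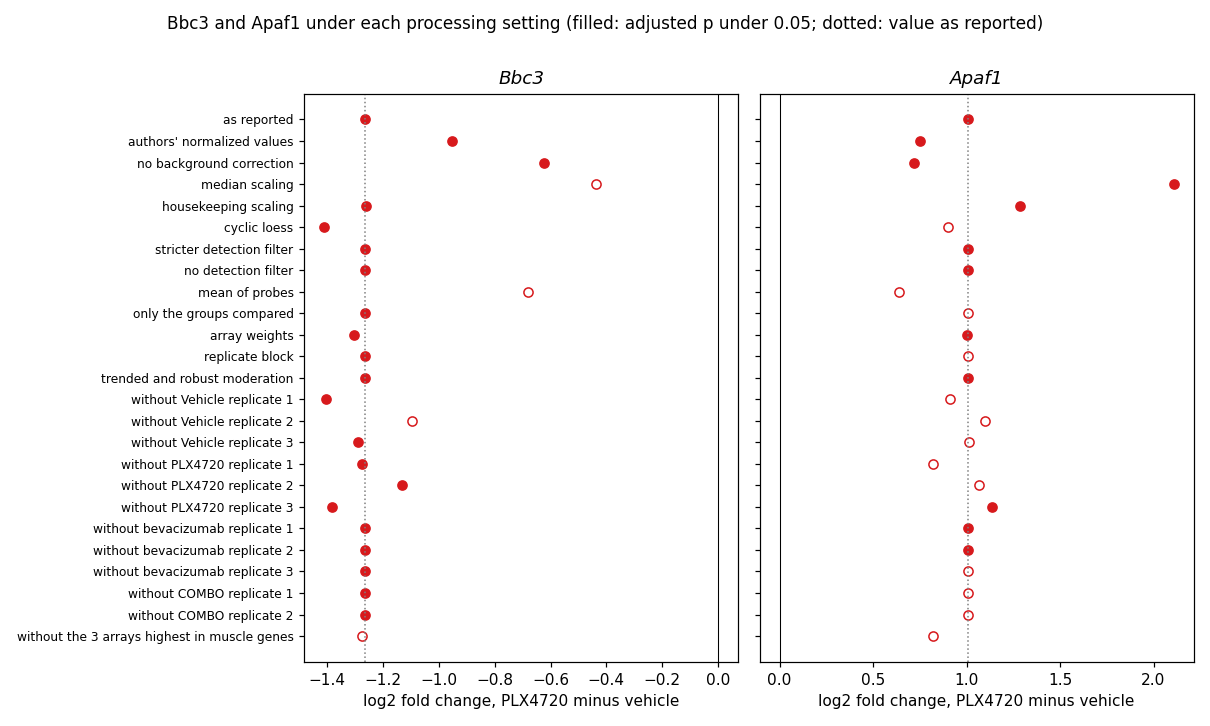
Log2 fold change of *Bbc3* and *Apaf1* for PLX4720 minus vehicle (x axis) under each way of processing the arrays and with each array left out (rows); filled points passed an adjusted p of 0.05 and the dotted line is the value reported. *Bbc3* stays below 0 and *Apaf1* above 0 in every row, between -1.41 and -0.44 for *Bbc3* and between 0.64 and 2.11 for *Apaf1*. Rows that leave out a bevacizumab or COMBO array, or change only the variance estimate, could not move the value.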

How the data were processed

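The 11 arrays cover 4 treatment groups. The authors deposited non-normalized signal intensity and a detection p-value for every probe, exported with GenomeStudio 2011.01, and the same intensity after their cubic spline normalization. The non-normalized table was background-corrected here and quantile-normalized with neqc (offset 16, controls inferred from the detection p-values; limma 3.58.1, R 4.3.3) and is given as log2 signal. Of 45281 probes, 34885 had 1 gene symbol in the platform annotation (18 had several and 10378 none), and those detected at p under 0.05 on any array were kept. The fit estimated 4 group means from all arrays, with moderated variances on 7 residual and 4.92 prior degrees of freedom, and p-values were adjusted by Benjamini-Hochberg over all genes or, for probes, over all probes. In an "at least" fold, each array's value in the undetected group is the higher of its own and the lowest detected log2 signal of that array. The number of arrays limits the precision, and no 2 arrays were identical (highest correlation 0.967).

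The members, lists and alternatives were chosen with earlier results of these data known. Named are all members, list genes past the threshold, genes with the largest differences of a list and comparison (at most 2 each, not all of them given), and 3 genes most like each called member. The fit was tested on simulated data. The alternatives are given in the closing section. The human arrays of the study were not used here.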

Additional observations from a re-analysis of the deposited data

How the results depend on the processing

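Limits come first from the number of arrays, with 2 for COMBO, and from signals near background for *Bmf*, *Pmaip1*, *Bid*, *Bak1* and *Bcl2*. For PLX4720 against vehicle, 2 members passed as reported. The count was 5 with median scaling, 3 with cyclic loess (*Bmf* and *Bcl2* gained, *Apaf1* lost), 3 with the stricter detection filter (*Bcl2* gained), 1 with only the groups compared, 1 with the replicate block, 0 with the mean of probes, 0 without the 3 arrays highest in muscle genes, and 0 to 2 when each array was left out in turn. Under median scaling, cyclic loess and the stricter filter ILMN_1249021 stood for *Bcl2* in place of ILMN_1249366. That probe already passed in the reported fit over all probes (adjusted p = 0.0221). In the F test the count was 4 with median scaling, 4 with cyclic loess, 3 with the stricter detection filter, 1 with the replicate block, 1 with the methods' one-way test, 0 with the mean of probes, 0 without those 3 arrays, and 0 to 2 with each array left out, against 2 as reported. For COMBO against PLX4720 it was 1 with median scaling, against 0 as reported, namely *Bcl2*, at -1.34 instead of 0.05. There another probe, ILMN_1249021, stood for *Bcl2*, which was at -0.88 without passing in the reported scaling, and the median of all genes was -0.59 instead of -0.07. In bevacizumab and COMBO against vehicle and COMBO against bevacizumab the count was 0 under every setting run.

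*Bbc3* lost its call with median scaling (log2 fold change -0.44, adjusted p = 0.159), the mean of probes, without vehicle replicate 2 and without the 3 arrays highest in muscle genes. *Apaf1* lost it with cyclic loess (adjusted p = 0.0523), the mean of probes (0.64, adjusted p = 0.14), only the groups compared (adjusted p = 0.0612), the replicate block (adjusted p = 0.0574), without those 3 arrays, and without each of vehicle replicates 1, 2 and 3, PLX4720 replicates 1 and 2, bevacizumab replicate 3 and COMBO replicates 1 and 2. Under median scaling the median of all genes for PLX4720 against vehicle was 0.76 instead of 0.14, so that 95.8% instead of 42.3% of the genes past the threshold were higher and *Bmf*, *Bak1*, *Bcl2*, *Mcl1* and *Apaf1* passed. *Bbc3*, at -0.44 without passing, lay below that median, a comparison that was not tested. The causes were not tested. All genes past the threshold numbered 1423 for PLX4720 as reported, 355 without vehicle replicate 2, 344 without the 3 muscle arrays and 5000 with median scaling. The replicate numbers do not mark a shared animal in the labels, and same-numbered arrays of different groups did not deviate together (correlations -0.24 to 0.26 over 15 pairs); between pairs of groups the replicate block changed no member call other than that of *Apaf1*. Other cell death genes past the threshold for PLX4720, 4 as reported, numbered 32 with median scaling, 2 with only the groups compared, 0 without the 3 muscle arrays and 0 to 6 with each array left out; these alternatives were chosen after seeing the data. Member values not past the threshold kept their sign in all but 58 of 1065 values over the settings. Part of the 1065 could not change sign, because some settings leave the fold change of a comparison as it was. Leaving out an array of a group outside the comparison is such a setting, so the share does not measure stability.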
